A study of Mus musculus with 32 samples.

Results

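Sebaceous gland lipid genes were followed in mouse epidermis as a set of 10 genes, matched by symbol: Scd1, Scd3, Awat1, Awat2, Dgat2, Dgat2l6, Mgst1, Elovl3, Mc5r and Fa2h. They are 10 of the 55401 gene identifiers counted. All 10 were among the 15546 genes tested, those reaching 1 cpm (reads relative to library size) in any mouse. They were matched by symbol and not picked by a measured value, but the set was chosen with earlier results of these data known.

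The sebaceous gland opens into the hair follicle and is built of sebocytes, epithelial cells that fill with lipid droplets and burst to release sebum. Mouse sebum is rich in wax esters, triglycerides and sterol esters. Their synthesis needs desaturated and elongated fatty acids, fatty alcohols and the acyltransferases that join them. PPAR receptors are nuclear receptors activated by fatty acids. PPARγ is known for driving sebocyte differentiation, and PPARβ/δ, the product of Ppard, is known in skin for roles in keratinocytes and in lipid metabolism.

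The mice were hairless SKH-1/SV129/BL6/J animals aged 10 to 14 weeks, either wild-type (WT) or labelled PPARD-/- (KO), and the series names the genotypes as littermates. Control mice were handled without irradiation, and UV mice received a single dorsal dose of 120 mJ/cm2, below the dose that reddens skin, and were sampled 24 h later. Dorsal epidermis was isolated and its mRNA sequenced, 1 library per mouse. The 32 mice fell into 8 groups of 4 (genotype by sex by exposure), so each genotype had 8 control and 8 UV mice. All groups shared the hairless background. Which part of Ppard the KO allele lacks is not given in the sources used here.

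The libraries held 22919428 to 40653581 reads assigned to genes, with a median of 27600228. Ppard itself was at 87.3 to 105 cpm in the WT control mice and 70.3 to 88.9 cpm in those labelled KO. After UV it was at 252 to 326 cpm in WT and 175 to 239 cpm in KO mice. Reads of Ppard therefore remained in the KO libraries. The KO-to-WT log2 difference was -0.42 ± 0.07 (SE) after UV (adjusted P value = 0.00114) and -0.26 ± 0.07 in controls (adjusted P value = 0.156), by edgeR's quasi-likelihood test. The KO female UV mouse 54F stood apart: its dermal fibroblast markers (Col1a1, Col1a2, Col3a1, Dcn, Lum and Pdgfra) summed to 1982 cpm, against 1.73 to 92.2 cpm in the other 31 mice. Values without that mouse are given where the result rests on it.

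The level of each gene per kilobase of exon set the order of abundance in WT control epidermis (mean ± SD, n = 8). Dgat2, which makes triglyceride from diglyceride, led with 202 ± 25.4 cpm per kb. Scd1, the stearoyl-CoA desaturase that makes monounsaturated fatty acids, followed with 123 ± 26.4 cpm per kb. Next came Fa2h, which hydroxylates fatty acids at the second carbon, at 21.04 ± 13.7 cpm per kb, then Elovl3, which elongates very long chain fatty acids, at 13.6 ± 6.21. The wax synthase Awat1 was at 13.4 ± 9.46 and the microsomal glutathione transferase Mgst1 at 6.44 ± 3.94 cpm per kb. The second wax synthase Awat2 (3.24 ± 2.42), the desaturase Scd3 (2.87 ± 2.87), the acyltransferase-like Dgat2l6 (1.31 ± 1.15) and the melanocortin receptor Mc5r (0.601 ± 0.452) were lowest. Dgat2 and Scd1 were each separated from their next neighbour by more than the SDs. From Fa2h down, neighbours in this order lay within their SDs of each other.

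Awat1, Awat2 and Dgat2l6 varied together from mouse to mouse (r = 0.91 to 0.94). Genes on different chromosomes did so as closely, such as Mgst1 and Fa2h (r = 0.95). The promoters of the 3 neighbours on chromosome X are shown. Each runs from 250 bases before to 50 bases after a RefSeq start (GRCm38.p6), 5′ to 3′ on the gene's own strand. Capitals mark the CCAAT box, written ATTGG where it lies on the other strand.
Awat2 (chrX:100442668-100442967, minus strand): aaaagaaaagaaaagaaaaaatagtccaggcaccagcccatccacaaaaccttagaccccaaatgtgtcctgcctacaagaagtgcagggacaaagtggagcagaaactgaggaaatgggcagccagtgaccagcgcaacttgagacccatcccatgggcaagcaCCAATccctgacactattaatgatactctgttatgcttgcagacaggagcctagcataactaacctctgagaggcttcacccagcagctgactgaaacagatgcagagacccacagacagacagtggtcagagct
Dgat2l6 (chrX:100524588-100524887, plus strand): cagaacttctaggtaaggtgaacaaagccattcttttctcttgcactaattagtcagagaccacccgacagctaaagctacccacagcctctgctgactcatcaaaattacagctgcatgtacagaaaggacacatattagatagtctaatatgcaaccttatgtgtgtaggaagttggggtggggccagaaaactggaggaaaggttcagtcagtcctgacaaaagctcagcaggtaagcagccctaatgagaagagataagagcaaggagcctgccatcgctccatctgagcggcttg
Awat1 (chrX:100571997-100572296, plus strand): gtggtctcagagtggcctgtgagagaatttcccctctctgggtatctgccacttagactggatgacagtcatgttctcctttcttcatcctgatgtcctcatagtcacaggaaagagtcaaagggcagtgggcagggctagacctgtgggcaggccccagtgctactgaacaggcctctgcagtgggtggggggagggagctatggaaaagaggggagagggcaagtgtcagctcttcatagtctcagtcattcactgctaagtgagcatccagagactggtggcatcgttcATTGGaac

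The Awat2 window shown holds CCAAT 85 bases before the start, the Awat1 window holds it 42 bases after the start on the opposite strand, and the Dgat2l6 window has none. RefSeq gives a second Awat2 start, whose window (chrX:100412538-100412837, minus strand) is not shown and holds CCAAT on the opposite strand 121 bases before that start. CCAAT occurs in 37.4% of the 32851 mouse promoter windows of this length. RefSeq windows were at hand for 5 of the 10 genes (7 windows, with Mgst1 and Scd3 among them). On either strand, none of the 7 held the PPAR response element (0.0396% of all windows), the AGGTCA motif it contains as a direct repeat (16.3%), the sterol regulatory element (0.234%) or TATAAA (13.6%). A letter match is a description of the window and not a binding site.

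Positions are those of the mouse build GRCm38 in GENCODE M21, and all 10 genes are protein-coding there. The desaturase and elongase genes lie on chromosome 19: Scd3 (ENSMUSG00000025202, 44203269 to 44244016, plus strand), Scd1 (ENSMUSG00000037071, 44394455 to 44407879, minus strand) and Elovl3 (ENSMUSG00000038754, 46131897 to 46135694, plus strand). The acyltransferases of the wax synthase family are neighbours on chromosome X: Awat2 (ENSMUSG00000031220, 100402221 to 100442717, minus strand), Dgat2l6 (ENSMUSG00000067597, 100524838 to 100546144, plus strand) and Awat1 (ENSMUSG00000015665, 100572251 to 100578205, plus strand). Dgat2 (ENSMUSG00000030747) is on chromosome 7 (99153658 to 99182719, minus strand) and Fa2h (ENSMUSG00000033579) on chromosome 8 (111345135 to 111393824, minus strand). Mgst1 (ENSMUSG00000008540) is on chromosome 6 (138140316 to 138156755, plus strand) and Mc5r (ENSMUSG00000007480) on chromosome 18 (68337596 to 68342446, plus strand). The Scd genes share some sequence: 2.58% of the 100-base windows of Scd1 and 2.49% of those of Scd3 also occur in another gene, chiefly of the Scd family, so a small share of their reads could be assigned either way or dropped. No such window was found in the other 8 genes.

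The first question was how the gland's lipid genes stood 24 h after UV in WT epidermis. In WT mice 6 of the 10 genes changed at an adjusted P value under 0.05, 3 upward and 3 downward. Of all 15546 genes tested 71% passed the same threshold, 34.5% upward and 36.5% downward, so the share among the 10 was near the background. The genes that rose were Dgat2l6, Elovl3 and Awat1, and those that fell were Scd3, Scd1 and Dgat2. Over the 10 genes the median log2 change was -0.22, beside -0.01 over all genes. For none of the 10 were the 8 control and the 8 UV mice separated, where 43.4% of all genes were. In these bulk samples, changes in the number of sebocytes, in RNA per sebocyte and in RNA from other epidermal cells cannot be told apart.

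Among the acyltransferases, Dgat2l6 was at 0.741, 5.70 and 18.2 cpm in the WT controls (lowest, median and highest of 8) and at 4.43, 27.4 and 34.1 cpm after UV. It rose 3.61-fold, by 1.85 ± 0.55 on the log2 scale (SE, adjusted P value = 0.00384). Above every control lay 5 of the 8 UV mice, and the other 3 were inside the control range. Awat1 was at 4.77, 16.8 and 46.2 cpm in controls and 10.3, 49.0 and 76.6 cpm after UV. Above every control lay 4 of the 8 UV mice. The rise of Awat1 was 2.31-fold (log2 1.21 ± 0.47, adjusted P value = 0.0242). The call for Awat1 was lost when WT male UV mouse 32M, WT male control 56M, WT female control 71F or WT female UV mouse 77F was left out (log2 0.98, 1.07, 1.06 and 1.07; adjusted P values 0.0673, 0.0516, 0.0510 and 0.0531). Awat2 was at 2.21, 6.62 and 17.9 cpm in controls and at 1.24, 6.56 and 17.2 cpm after UV, with a log2 difference of -0.05 ± 0.55 (adjusted P value = 0.941). Its groups covered the same range.

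Elovl3 was at 8.52, 28.0 and 46.5 cpm in the WT controls and at 11.96, 64.1 and 118 cpm after UV. It rose 2.33-fold (log2 1.22 ± 0.46, adjusted P value = 0.0198), with 3 of the 8 UV mice inside the control range. Without WT male UV mouse 32M the log2 difference was 0.86 (adjusted P value = 0.0868), and under limma-trend, the method of the study, it was 1.00 (adjusted P value = 0.0652).

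The desaturases moved the other way. Scd1 was at 429, 584 and 819 cpm in controls and at 74.5, 206 and 453 cpm after UV, a 2.59-fold fall (log2 -1.37 ± 0.41, adjusted P value = 0.00384). Only the top of the UV range, WT male mouse 32M at 453 cpm, reached into the control range. Scd3, a desaturase known mainly from skin, was at 0.555, 4.58 and 23.8 cpm in controls and 0.414, 1.51 and 3.26 cpm after UV (log2 -2.65 ± 0.62, adjusted P value = 0.000435). The controls of Scd3 spread widely and overlapped the UV mice at their low end. Without WT female control 61F, which held 21.8 cpm, the log2 difference was -1.67 (adjusted P value = 0.00696).

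Dgat2 had the tightest groups of the set. It was at 512, 616 and 737 cpm in the WT controls and at 433, 470 and 565 cpm after UV, a 1.30-fold fall (log2 -0.38 ± 0.10, adjusted P value = 0.000871). The remaining 3 genes did not pass the threshold. Fa2h was at 13.6, 70.8 and 130 cpm in controls and 4.94, 30.2 and 92.3 cpm after UV (log2 -0.66 ± 0.64, adjusted P value = 0.367). Leaving out WT male UV mouse 32M, whose 92.3 cpm was the top value, put its log2 difference at -1.44 (adjusted P value = 0.0439). Mgst1 was at 3.89, 12.7 and 24.97 cpm in controls and 3.35, 9.34 and 30.8 cpm after UV (log2 0.06 ± 0.51, adjusted P value = 0.927). Mc5r, the receptor through which melanocortins act on sebaceous glands, was at 0.563, 2.26 and 5.77 cpm and 0.218, 1.10 and 2.97 cpm (log2 -0.86 ± 0.58, adjusted P value = 0.192).

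**Figure D1:**
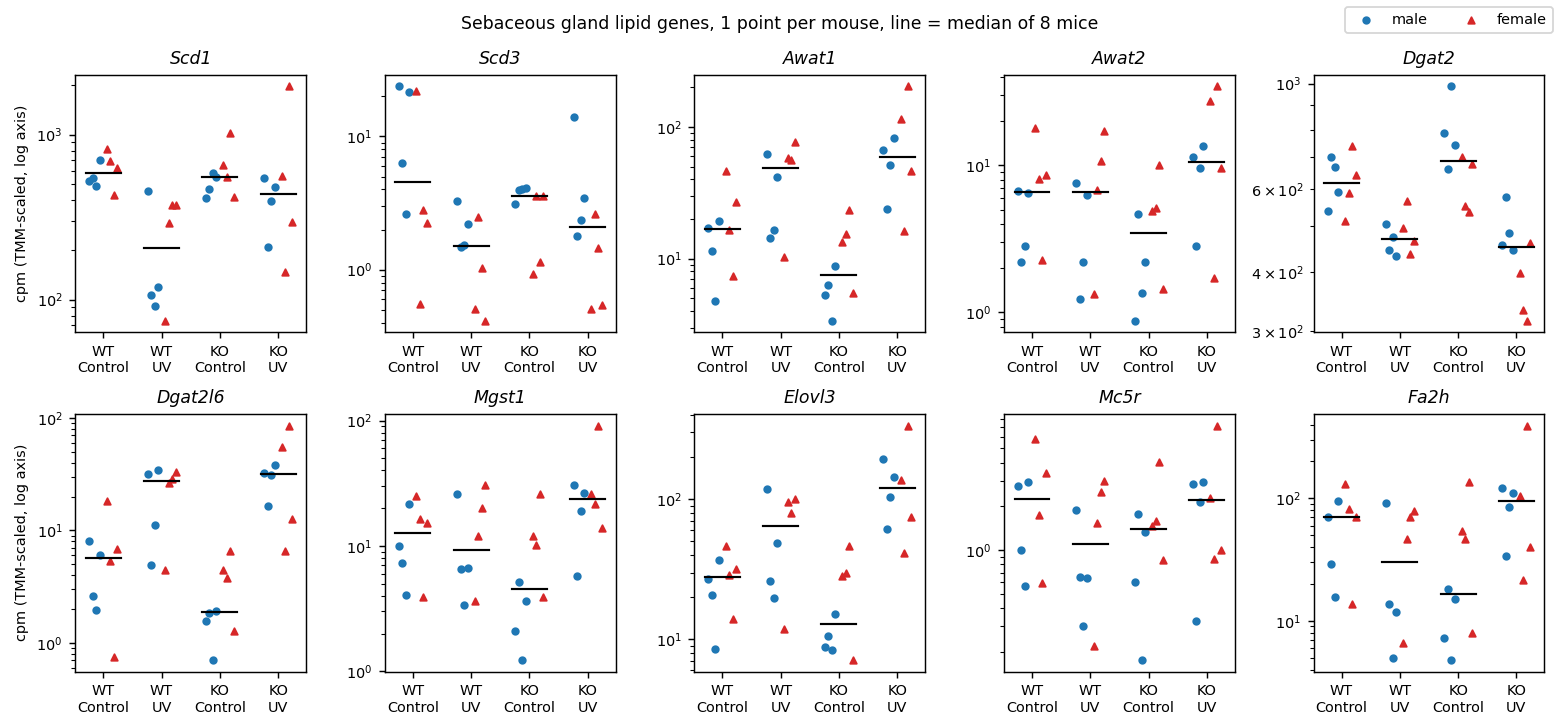
Level of each of the 10 genes in each mouse, in TMM-scaled cpm on a log axis, by genotype and exposure; blue circles are males, red triangles females and lines the medians of 8 mice. Dgat2l6 in KO mice is the gene whose UV and control mice did not overlap (0.703 to 6.56 and 6.61 to 85.6 cpm), and Dgat2 shows the narrowest spread.

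In KO mice 7 of the 10 genes changed after UV, 6 upward and 1 downward, where 70.8% of all genes passed, 37.3% upward and 33.5% downward. Awat1, Awat2, Dgat2l6, Elovl3, Mgst1 and Fa2h rose and Dgat2 fell. The median log2 change of the set was 1.98, beside 0.09 over all genes tested. Without mouse 54F the same number, 7, passed.

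Dgat2l6 was at 0.703, 1.88 and 6.56 cpm in the KO controls and at 6.61, 31.7 and 85.6 cpm after UV. This was a 13.8-fold rise (log2 3.79 ± 0.60, adjusted P value = 2.68e-06), and the lowest UV mouse, 54F, lay just above the highest control. For 35.1% of all genes the 2 groups did not overlap. Awat1 was at 3.39, 7.53 and 23.3 cpm in controls and 16.2, 59.2 and 203 cpm after UV, a 7.84-fold rise (log2 2.97 ± 0.50, adjusted P value = 6.90e-06). Elovl3 was at 7.13, 12.9 and 46.3 cpm and then 41.4, 121 and 336 cpm, a 7.87-fold rise (log2 2.98 ± 0.49, adjusted P value = 4.55e-06). For Awat1 and Elovl3 the ranges met only at their ends. Awat2 was at 0.879, 3.45 and 10.1 cpm in controls and 1.71, 10.6 and 34.6 cpm after UV (log2 1.89 ± 0.57, adjusted P value = 0.00431), with a wider overlap.

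Mgst1, which conjugates glutathione to lipid peroxides and is abundant in sebocytes, was at 1.23, 4.52 and 26.1 cpm in KO controls and 5.81, 23.8 and 91.3 cpm after UV (log2 2.15 ± 0.54, adjusted P value = 0.000837). Fa2h was at 4.79, 16.7 and 136 cpm and then 21.5, 94.5 and 393 cpm (log2 2.07 ± 0.67, adjusted P value = 0.00727). Both had a female control mouse well inside the UV range. The rise of Fa2h was smaller without KO female UV mouse 66F (log2 1.40, adjusted P value = 0.0494). Dgat2 was at 535, 688 and 987 cpm in controls and 316, 451 and 578 cpm after UV, a 1.63-fold fall (log2 -0.70 ± 0.10, adjusted P value = 2.69e-07). Its groups overlapped slightly.

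The desaturases did not pass the test in KO mice. Scd1 was at 410, 552 and 1028 cpm in controls and 146, 437 and 1961 cpm after UV (log2 -0.07 ± 0.40, adjusted P value = 0.880), and a single female, 66F, held the highest value. Scd3 was at 0.935, 3.57 and 4.12 cpm and then 0.505, 2.08 and 13.9 cpm (log2 -0.16 ± 0.59, adjusted P value = 0.815). Mc5r was at 0.176, 1.41 and 4.03 cpm and then 0.325, 2.21 and 7.18 cpm (log2 0.79 ± 0.58, adjusted P value = 0.231). In all of them the groups overlapped broadly.

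**Figure D2:**
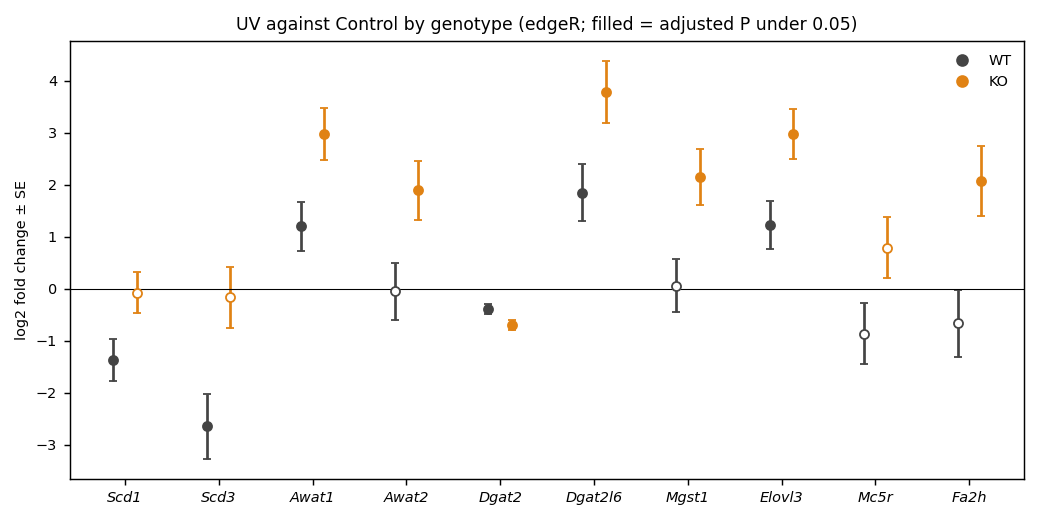
Log2 change after UV (± SE, edgeR) of each gene in WT (grey) and KO mice (orange), 8 UV against 8 control mice per genotype, with filled points at an adjusted P value under 0.05. The KO estimate is above the WT estimate for 9 genes and below it for Dgat2.

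The 2 genotypes share no mice, so the difference in response could be tested directly as the genotype by UV interaction. No gene of the set passed at an adjusted P value under 0.05 (lowest 0.118, Fa2h), where 0.765% of all genes did (119 of 15546). At an unadjusted P value under 0.05 stood 9 of the 10 genes, beside 19.6% of all genes. DESeq2 called 2 of the set, Scd3 (adjusted P value = 0.0425) and Fa2h (adjusted P value = 0.0415). The 0.765% is edgeR's share, and the share of all genes called by DESeq2 is not given here. The interaction estimate, KO change minus WT change, was positive for 9 genes and negative for Dgat2. These 10 estimates are not independent, because most of the genes varied together from mouse to mouse, as described further on.

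The largest estimates were those of Fa2h (log2 2.74 ± 0.92, adjusted P value = 0.118), Scd3 (2.49 ± 0.85), Mgst1 (2.09 ± 0.74), Awat2 (1.94 ± 0.79) and Dgat2l6 (1.94 ± 0.77) in the edgeR fit. Awat1 (1.77 ± 0.66), Elovl3 (1.76 ± 0.65), Mc5r (1.65 ± 0.83) and Scd1 (1.30 ± 0.57) followed, and Dgat2 was at -0.32 ± 0.14. Mc5r was the gene above 0.05 before adjustment (adjusted P value = 0.268). So 6 genes rose in KO mice and 3 in WT mice by the same threshold, but the difference between genotypes did not pass the correction for any of them in edgeR.

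The interaction is the KO-to-WT difference after UV less that in controls, and each was also tested. In controls the KO-to-WT log2 difference was below 0 for 9 genes and 0.17 ± 0.10 for Dgat2, with a median of -0.91 beside -0.002 over all genes. None passed in edgeR (lowest adjusted P value 0.399), where 0.206% of all genes did, and DESeq2 also called 0. Before adjustment 2 were under 0.05 (8.52% of all genes), Scd3 (-1.70 ± 0.60) and Dgat2l6 (-1.28 ± 0.56). Fa2h was at -1.24 ± 0.65, Mgst1 at -1.02 ± 0.53, Awat1 at -0.94 ± 0.48 and Awat2 at -0.88 ± 0.56. Scd1, at -0.06 ± 0.40, was nearest to 0.

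After UV the KO-to-WT log2 difference was above 0 for 9 genes and -0.15 ± 0.10 for Dgat2, with a median of 1.00 beside 0.02 over all genes. None passed in edgeR, where 3.31% of all genes did (514 of 15546), and 4 were under 0.05 before adjustment (20.1% of all genes). These were Scd1 (1.24 ± 0.41, adjusted P value = 0.0818), Elovl3 (1.14 ± 0.46), Fa2h (1.495 ± 0.65) and Mgst1 (1.07 ± 0.52). DESeq2 called Scd1 (adjusted P value = 0.0494), and its share of all genes is not given here (the 3.31% is edgeR's). In edgeR, Scd1 passed when WT male UV mouse 32M was left out (log2 1.66, adjusted P value = 0.0247). That mouse had 453 cpm of Scd1, and the other 3 WT males 90.9 to 119 cpm. Dermal fibroblast markers, of which 6 of 6 were called higher in KO than in WT after UV and 0 of 6 without mouse 54F or under limma-trend, moved with this comparison; without 54F, 0 genes of the set passed. The KO-to-WT comparisons share their mice with the interaction and add no separate evidence to it.

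Both sexes were measured in each arm. In controls the female-to-male log2 difference was above 0 for 8 of the 10 genes, with a median of 0.97 beside -0.02 over all genes. None of the 10 passed (lowest adjusted P value 0.124, Mgst1), where 6.86% of all genes did, and DESeq2 called 0. The 3 genes under 0.05 before adjustment (25.1% of all genes) were Mgst1 (1.30 ± 0.53), Awat1 (1.08 ± 0.48) and Fa2h (1.46 ± 0.66). After UV 0 passed in edgeR or DESeq2 (3.03% of all genes in edgeR) and 1 was under 0.05 before adjustment (20.4% of all genes). For the sex by UV interaction 0 passed in edgeR or DESeq2 and 0 were under 0.05 before adjustment (7.02% of all genes), while no gene at all was called (0%).

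Within a sex and genotype the comparison is 4 mice against 4. In KO males 7 genes passed after UV (6 up, 1 down), where 61.7% of all genes did (30.9% in each direction). For 5 of the 10 every KO male after UV lay above every KO male control, and for 1 below, where 53.5% of all genes were so separated in either direction. Mgst1 was at 2.08, 5.13, 1.23 and 3.64 cpm in the 4 male KO controls and 30.9, 5.81, 19.1 and 26.3 cpm in the 4 UV males, so its separation was narrow. Fa2h was at 7.20, 18.3, 4.79 and 14.97 cpm and 123, 33.7, 85.1 and 111 cpm. In KO females 4 passed (3 up, 1 down, against 60.7% of all genes, 34% up and 26.7% down), in WT males 4 (1 up, 3 down, against 60.9%, 29.8% up and 31.1% down) and in WT females 2, both downward (against 61.3%, 30.1% up and 31.1% down). The mice of both arms did not overlap for 1 gene upward and 1 downward in KO females (52.5% of all genes in either direction), for 2 downward in WT males (54.9%) and for 1 downward in WT females (57.8%). The count of genes called in WT males was 2 without WT male UV mouse 71M, and that in WT females was 1 without 54F, 57M, 59F, 61M, 62F, 71F, 73F or 77F. Whether the sexes differed in these counts was not tested beyond the interaction above.

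The genes also varied between mice of the same group. The deviation of each mouse from its group mean, in log2 cpm, was computed for each gene, and these deviations are described over the 32 mice with no test, since the genes share libraries. Most of the genes moved together: among Awat1, Awat2, Dgat2l6, Elovl3, Mgst1, Mc5r, Fa2h and Scd1, the 28 pairwise correlations had a median r of 0.87 and ran from 0.75 to 0.95. Mgst1 and Fa2h (r = 0.95) and Awat1 and Elovl3 (r = 0.95) were the closest pairs. Averaged over the 10 genes, the deviation ran from -1.74 in WT female UV mouse 51F to 1.48 in KO female UV mouse 66F on the log2 scale. Fa2h had the widest spread within groups (SD 1.46 log2) and Dgat2 the narrowest (0.194).

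Dgat2 and Scd3 did not follow the others. The 9 pairs with Dgat2 had r from -0.66 to -0.24, so mice high in the wax synthases tended to be lower in Dgat2. The 8 pairs of Scd3 with the genes other than Dgat2 had r from 0.14 to 0.36. Scd1 followed the 8-gene block (r = 0.84 with the mean of the other 9 genes) although it fell after UV in WT mice, where Awat1, Dgat2l6 and Elovl3 rose.

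**Figure D3:**
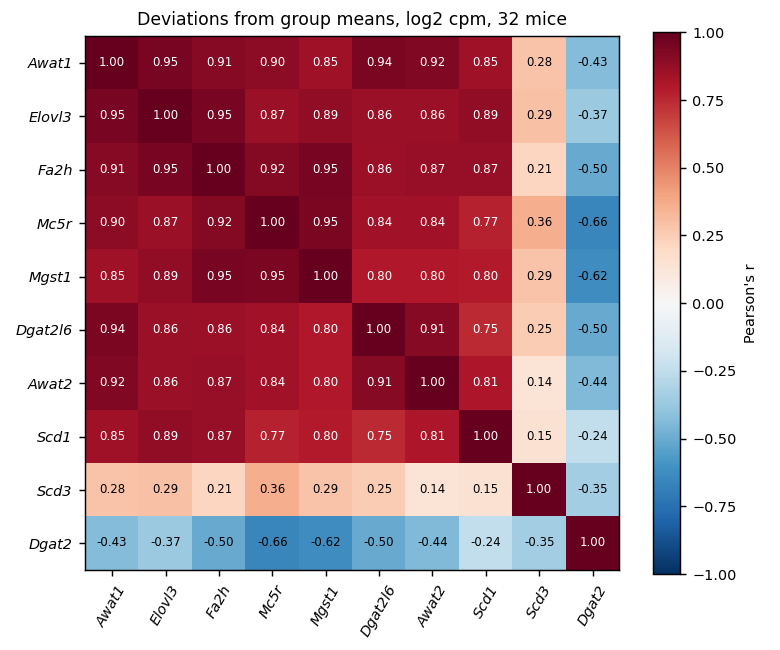
Pearson's r between genes of their deviations from group means in log2 cpm, over 32 mice. The upper left block of 8 genes holds r from 0.75 to 0.95, and the row of Dgat2 is negative throughout (-0.66 to -0.24).

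Outside the set, 5 of 13075 genes with a mean of at least 1 cpm followed the mean deviation of the 10 genes most closely over the 32 mice. They were Far2, which makes the fatty alcohols used for wax esters (r = 0.978), Mgll, a monoglyceride lipase (0.970), the ceramide synthase Cers4 (0.967), the lipase Pnpla5 (0.965) and the carboxylesterase Ces4a (0.955). After UV, Far2 went from 51.5 ± 40.5 to 46.9 ± 35.2 cpm in WT mice (SD, n = 8; log2 -0.13 ± 0.59, adjusted P value = 0.861) and rose from 26.5 ± 28.6 to 118 ± 121 cpm in KO mice (log2 2.42 ± 0.63, adjusted P value = 0.00116). Pnpla5 rose in KO mice (log2 2.34 ± 0.49, adjusted P value = 0.000110) and was at 0.40 ± 0.46 in WT mice (adjusted P value = 0.452). Mgll rose in KO mice (1.56 ± 0.48, adjusted P value = 0.00533) and was at -0.54 ± 0.47 in WT mice (adjusted P value = 0.318). Ces4a rose in KO mice (3.17 ± 0.62, adjusted P value = 4.83e-05). In WT mice it was at 1.11 ± 0.57 (adjusted P value = 0.0827), and it passed there without 1 of 3 mice (38M, 51F or 61F, log2 1.29, 1.29 and 1.48). Cers4 passed in KO mice (1.32 ± 0.55, adjusted P value = 0.0327), but not under limma-trend (1.16, adjusted P value = 0.0660) or without any 1 of 8 mice (lowest 0.78 without 66F, adjusted P value = 0.183). In WT mice Cers4 was at -0.69 ± 0.54 (adjusted P value = 0.257) and passed without 32M (-1.32, adjusted P value = 0.0256).

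Since most of the genes varied together, their proportions to each other within a mouse were also compared. The log2 ratio of each gene to Mgst1, and to Fa2h, was taken in each mouse. Both denominators, and the use of ratios, were chosen after the values had been seen. UV and control mice of 1 genotype were compared by a two-sided exact permutation test within sex (4900 arrangements, smallest possible P value 0.000408), with adjustment over the 34 ratio comparisons.

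Relative to Mgst1, Dgat2l6 was higher after UV in both genotypes, by 2.03 log2 in WT (adjusted P value = 0.00278, exact test) and 1.48 in KO mice (adjusted P value = 0.00370, exact test). Elovl3 was higher by 1.08 in WT (adjusted P value = 0.00297, exact test) and 0.78 in KO mice (adjusted P value = 0.0243, exact test). Awat1 was higher by 1.22 in WT mice, where all 8 UV mice lay above all 8 controls (1.13 to 2.65 against -0.17 to 0.92, adjusted P value = 0.00154, exact test). In KO mice the Awat1 difference was 0.67 (adjusted P value = 0.0902, exact test), and 0.93 without mouse 54F (adjusted P value = 0.00555, exact test). Awat2 differed by -0.15 in WT and -0.37 in KO mice, neither past the threshold (adjusted P values 0.646 and 0.523, exact test).

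Scd1 lost ground against Mgst1 in both genotypes, with every UV mouse below every control. In WT mice the log2 ratio was 5.01 to 6.90 in controls and 3.61 to 4.75 after UV, a mean difference of -1.57 (adjusted P value = 0.00154, exact test). In KO mice it was 5.30 to 8.84 and 2.75 to 5.16, a mean difference of -2.48 (adjusted P value = 0.00154, exact test). Thus Scd1 fell relative to Mgst1 in the KO mice, in which the level of Scd1 had not passed the test and Mgst1 had risen (log2 2.15 ± 0.54). The log2 ratio of Mc5r to Mgst1 fell by 0.80 in WT mice (adjusted P value = 0.00297, exact test) and decreased by 1.44 in KO mice (adjusted P value = 0.00154, exact test), and in KO mice its groups did not overlap (-2.99 to -1.43 against -4.60 to -3.14). In KO mice the level of Mc5r was at log2 0.79 ± 0.58, so its ratio there held the rise of Mgst1. Relative to Fa2h, Mc5r differed by 0.12 in WT mice (adjusted P value = 0.646, exact test) and -1.32 in KO mice (adjusted P value = 0.00653, exact test).

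Fa2h fell by 0.91 log2 relative to Mgst1 in WT mice (adjusted P value = 0.00297, exact test) and differed by -0.12 in KO mice (adjusted P value = 0.738, exact test). With Fa2h as the denominator, Dgat2l6, Elovl3 and Awat1 were again higher after UV: by 2.94, 1.99 and 2.14 in WT mice, without overlap, and by 1.60, 0.90 and 0.79 in KO mice (adjusted P values 0.00154, 0.0146 and 0.0465, exact tests). The Awat1 value in KO mice missed the threshold when any 1 of 10 mice was left out. Scd1 relative to Fa2h was lower in KO mice (-2.36, adjusted P value = 0.00154, exact test), and differed by -0.65 in WT mice (adjusted P value = 0.189, exact test). Dgat2, which ran against the other genes within groups, was lower relative to Mgst1 in KO mice (-2.78, adjusted P value = 0.00297, exact test) and differed by -0.30 in WT mice (adjusted P value = 0.646, exact test). In KO mice Dgat2 itself changed by log2 -0.70 ± 0.10 and Mgst1 by 2.15 ± 0.54, so this ratio mostly restates the rise of Mgst1. With r = -0.62 between the 2 genes within groups, the ratio removes no shared variation. Scd3 relative to Mgst1 was lower by the same test in KO mice (-2.53, adjusted P value = 0.00607, exact test) and in WT mice (-1.92, adjusted P value = 0.0347, exact test), where the call was lost without 43M, 59F, 61F, 71F or 77F. In KO mice the level of Scd3 differed by log2 -0.16 ± 0.59, so its ratio there also mostly held the rise of Mgst1.

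**Figure D4:**
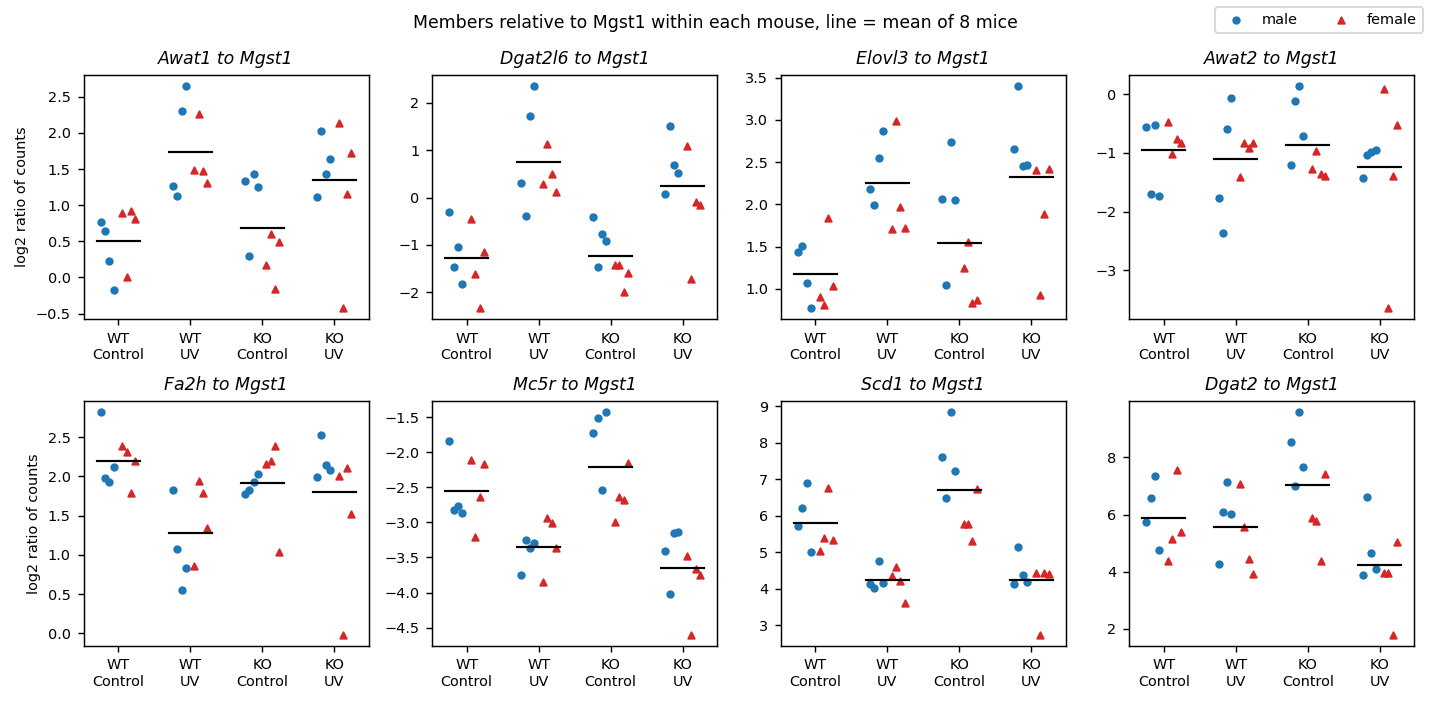
Log2 ratio of 8 genes to Mgst1 within each mouse, by genotype and exposure (circles male, triangles female, lines the mean of 8 mice). The Scd1 ratios of UV mice lie below all control ratios in both genotypes (WT 3.61 to 4.75 against 5.01 to 6.90), and the Awat1 ratios of WT UV mice lie above all WT controls.

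The amount of appendage in an epidermal sheet can vary with the dissection, and markers of other cell types were followed in the same mice. Hair follicle markers (16 of 17 symbols matched, 15 tested) summed to 191 to 531 cpm in WT controls, 44.1 to 852 cpm in WT UV, 127 to 430 cpm in KO control and 57.1 to 754 cpm in KO UV mice. By sex, every UV mouse lay below every control in KO females (295 to 430 cpm in controls, 68.7 to 186 cpm after UV) and in WT males (191 to 531 and 89.2 to 149 cpm). The ranges overlapped in KO males (127 to 412 and 57.1 to 754 cpm) and in WT females (259 to 526 and 44.1 to 852 cpm). The part of these sums in the results within a sex was not tested. After UV 4 of the 15 were called higher and 2 lower in WT mice, and 3 higher and 1 lower in KO mice. Of all genes tested, 71% were called in WT and 70.8% in KO mice, the shares to set beside the UV counts of every marker list here. The log2 sum of the hair follicle markers correlated with the mean deviation of the 10 genes within groups at r = 0.40 (32 mice). The 6 dermal fibroblast markers summed to 12.6 to 71.9 cpm in WT controls and 1.73 to 8.44 cpm in WT UV mice, with 3 of 6 called lower (5 of 6 without mouse 54F, 2 of 6 without WT male control 43M). In KO mice they summed to 2.24 to 92.2 cpm in controls and 5.999 to 1982 cpm after UV, with 0 of 6 called (3 without 54F; r = -0.15 with the 10 genes). Adipocyte markers summed to 73.04 to 187 cpm in WT control, 84.5 to 284 cpm in WT UV, 75.0 to 320 cpm in KO control and 107 to 302 cpm in KO UV mice (r = -0.03). Of the 7 tested, 2 were called higher after UV in WT mice (1 without 32M) and 4 in KO mice (2 without 52M or 58M), and 0 lower. Those called were Cidec and Lipe in WT mice, and Adig, Cidec, Lipe and Lpl in KO mice. Of the 12 adipocyte markers, Adipoq, Lep, Retn, Pck1 and Plin1 had means under 0.1 cpm. Interfollicular keratinocyte markers (Krt5, Krt14, Krt1, Krt10, Itga6 and Lor) summed to 66746 to 74989 cpm in WT control and 26694 to 40569 cpm in WT UV mice, so the labelled tissue carried its defining markers throughout (r = -0.26). In KO mice they summed to 62399 to 101509 cpm in controls and 23031 to 49598 cpm after UV. Of the 6, 2 were called higher and 4 lower after UV in WT mice, and 2 higher and 3 lower in KO mice. Krt14 and Itga6 rose (log2 1.70 ± 0.22 and 1.44 ± 0.17 in WT mice), while Krt1, Krt10 and Lor fell in both genotypes. The part of these cell types in the results was not tested.

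**Figure D5:**
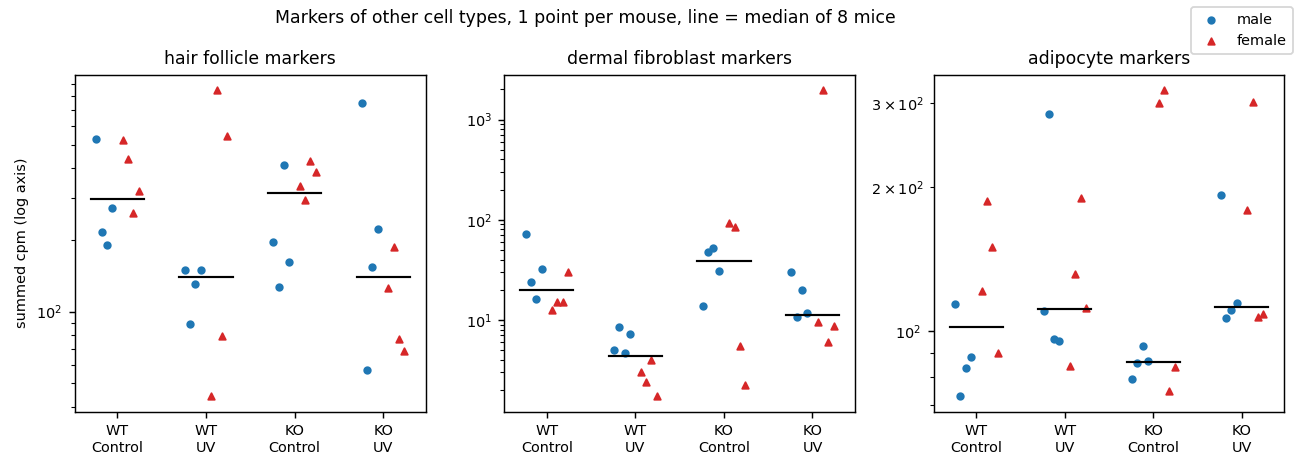
Summed cpm (log axis) of markers of hair follicle, dermal fibroblasts and adipocytes in each mouse, by genotype and exposure, with lines at the median of 8 mice. The KO female UV mouse 54F lies at 1982 cpm of fibroblast markers, and the hair follicle sums of UV mice run from 44.1 to 852 cpm.

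Sebocyte markers outside the set (Pparg, Plin2, Cidea, Krt79, Far2, Soat1 and Acsbg1) gave 2 higher and 1 lower of 7 in WT mice after UV, and 5 higher and 2 lower in KO mice. Of all genes, 34.5% were called higher and 36.5% lower in WT mice, and 37.3% and 33.5% in KO mice. All 7 also stand in 1 of the 3 lists that follow, so the counts are not separate. They summed to 1232 to 1829 cpm in WT control, 855 to 1759 cpm in WT UV, 1622 to 2244 cpm in KO control and 764 to 1806 cpm in KO UV mice. In KO mice the mean sum was thus lower after UV (1889 ± 221 and 1229.7 ± 390 cpm, SD, n = 8), while 5 of the 7 genes and 6 of the 10 gland genes were called higher. The 2 genes that fell there were Acsbg1 (log2 -1.76 ± 0.12) and Krt79 (-0.80 ± 0.24). Acsbg1, whose cpm is given below, made up a large part of the KO control sum. Its fall was most of the fall in the mean sum, so the sum is no measure of the other genes. In KO males every UV sum (892 to 1657 cpm) lay below every control sum (1668 to 2244 cpm). The part of these sums in the results was not tested. Their summed level, in which Acsbg1 weighed heavily, followed the 10 genes within groups at r = 0.45. This r is that of the sum and not of the single genes. Far2, 1 of the 7, was at r = 0.978, the closest of all genes compared. Pparg, named after its values were seen, was at 1.12 ± 0.78 cpm in WT control and 1.195 ± 0.86 cpm in WT UV mice (log2 0.07 ± 0.57, adjusted P value = 0.923). In KO mice it rose from 0.75 ± 0.78 to 3.42 ± 2.81 cpm (log2 2.42 ± 0.60, adjusted P value = 0.000750).

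Among 23 other genes of sebum lipid synthesis, 21 were tested. In WT mice 5 rose and 10 fell after UV (median log2 -0.26), and in KO mice 7 rose and 8 fell (median -0.47). The 15 of 21 called in each genotype stand beside 71% (WT) and 70.8% (KO) of all genes. The 3 largest rises in WT mice were Dgat1, the other enzyme of triglyceride synthesis (21.5 ± 3.81 to 84.6 ± 7.39 cpm, log2 1.97 ± 0.15), Far1, a fatty acyl-CoA reductase (1.49 ± 0.25), and Agpat2, an acyltransferase of phosphatidic acid synthesis (1.02 ± 0.16). All 3 also rose in KO mice (2.42 ± 0.15, 2.58 ± 0.26 and 0.89 ± 0.16). Dgat1 thus rose in both genotypes while Dgat2 fell in both. The 3 largest falls in WT mice were those of the elongase Elovl6 (286 ± 54.4 to 72.2 ± 33.8 cpm, log2 -1.99 ± 0.31) and the desaturases Fads1 (-1.88 ± 0.29) and Fads2 (-1.88 ± 0.43). In KO mice Elovl6 fell (-0.998 ± 0.30). There Fads1 was at -0.47 ± 0.28 (adjusted P value = 0.134) and Fads2 at -0.69 ± 0.41 (adjusted P value = 0.141). Without mouse 54F both passed (-1.01 and -1.12, adjusted P values 5.68e-06 and 0.0120), and Fads1 also passed under limma-trend (-0.69, adjusted P value = 0.0196).

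In this list 1 of 21 genes differed between the genotypes in controls, where 0.206% of all genes did. Acsbg1, a very long chain acyl-CoA synthetase, was at 416 ± 53.5 cpm in WT and 922 ± 219 cpm in KO controls (log2 1.13 ± 0.12, adjusted P value = 3.50e-06). After UV it was at 175 ± 28.1 and 270 ± 64.0 cpm (0.62 ± 0.12, adjusted P value = 0.00649). After UV 2 of 21 passed, where 3.31% of all genes did. They were Acsbg1 and Fads1 (1.59 ± 0.43 and 4.73 ± 5.96 cpm, log2 1.32 ± 0.29, adjusted P value = 0.0142). Without mouse 54F the Fads1 difference was 0.75 (adjusted P value = 0.0226). The count was 5 under DESeq2, 5 without WT male UV mouse 32M and 4 without KO UV mouse 59M or 74F. The shares of all genes called in these other fits are not given, so the counts cannot be set against them. Acsbg1 was thus higher in KO controls, in which 9 of the 10 gland genes had estimates below 0.

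Of 11 lipid droplet and storage genes, 9 were tested. In WT mice 4 rose and 2 fell after UV (median log2 1.11), and in KO mice 7 rose and 2 fell (median 2.25), so 6 and 9 of 9 were called, beside 71% and 70.8% of all genes. Cidea, a lipid droplet protein, rose from 10.8 ± 6.79 to 55.4 ± 5.51 cpm in WT mice (log2 2.38 ± 0.35) and by 3.51 ± 0.37 in KO mice. Plin2, which coats droplets, rose from 38.4 ± 15.8 to 195 ± 39.2 cpm in WT mice (2.38 ± 0.27) and by 2.83 ± 0.28 in KO mice. Hilpda, an inhibitor of triglyceride lipase, rose by 1.38 ± 0.25 and 2.25 ± 0.26. Plin3, another coat protein, fell by 0.86 in WT and 0.77 in KO mice on the log2 scale. The triglyceride lipase Pnpla2 fell by 0.81 and 0.87. Of this list 0 passed between the genotypes, in controls or after UV, in edgeR and in DESeq2. In edgeR 0.206% of all genes passed in controls and 3.31% after UV.

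Of 9 regulators and duct genes of the gland, 8 were tested. In WT mice 4 rose and 2 fell after UV, and in KO mice 3 rose and 2 fell, so 6 and 5 of 8 were called, beside 71% and 70.8% of all genes. Sox9, a transcription factor of follicle stem cells, rose from 9.92 ± 1.85 to 51.7 ± 8.06 cpm in WT mice (log2 2.39 ± 0.13) and by 2.54 ± 0.13 in KO mice. Gata6, a factor of the upper follicle and sebaceous duct, rose by 1.41 ± 0.22 and 1.05 ± 0.22. The mucin Muc1 rose by 0.98 ± 0.29 in WT mice and was at 0.53 ± 0.29 in KO mice (adjusted P value = 0.0968), where it passed without KO female control 60F (0.69, adjusted P value = 0.0376). Lrig1, a marker of stem cells next to the gland, fell in WT mice (-0.77 ± 0.13). In KO mice it was at -0.27 ± 0.13 (adjusted P value = 0.0617) and passed without 52M, 60F or 66F, under limma-trend, DESeq2 or filterByExpr (-0.28, -0.28 and -0.30).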

How the data were processed

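RNA sequencing of dorsal epidermis covered 32 mice. The authors trimmed reads with cutadapt 1.8, removed ribosomal and low-complexity reads, aligned with STAR 2.5.3a and counted with HTSeq 0.9.1, per their methods and the submitters' processing notes (build GRCm38; the methods print a human build name). The deposited values are whole-number counts per gene without normalization. Libraries were stranded and single-read. Reads outside genes were 6.80 to 9.75% of uniquely aligned reads and, with the 5 summary lines per file, were left out. Symbols, positions and exon lengths came from GENCODE M21 (55141 of 55401 identifiers matched).

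The filter was 1 cpm reached in any mouse. Counts were scaled by TMM and fitted over all 32 mice with 8 group means by edgeR 4.0.16's quasi-likelihood test (limma 3.58.1, DESeq2 1.42.0, R 4.3.3; Python 3.11.15). Contrasts averaged the sexes unless stated, and P values were adjusted by Benjamini-Hochberg over all genes tested, with calls at 0.05. The fit was also run on simulated counts in which few genes changed, whereas most genes were called after UV here. That run does not cover this setting, and its outcome is not given. Log2 values used a prior count of 1. Replicate libraries differed by more than counting noise in every pair. Groups came from the labels, with no batch given there. The genes and lists were chosen with earlier results of these data known. Beyond the 10 genes and Ppard, the text names the 3 largest rises and falls per list in WT mice, list genes called between genotypes, and the 5 most alike genes. A result for 1 list gene is not reported here. Alternatives were RLE, limma-trend, DESeq2, filterByExpr, no filter, genotypes or sexes fitted separately, leaving out each mouse, and, chosen after seeing the data, a prior count of 0.25 for ratios. The Krt85 symbol was not matched.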

Additional observations from a re-analysis of the deposited data

Results flagged for a closer look

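Within the 80 groups of 4 mice (10 genes in 8 groups), the highest or lowest mouse stood far from the other 3 in 7 groups, in 5 different mice. About 1 in 20 groups is set apart in this way by chance if values are normally distributed and groups independent. The values used were cpm without log scaling, and most of the genes varied together, so the rate here can differ. WT male UV mouse 32M stood high for 3 genes, with 453 cpm of Scd1 (others 90.9 to 119), 26.0 cpm of Mgst1 (others 3.35 to 6.62) and 92.3 cpm of Fa2h (others 4.94 to 13.8). Its Scd1 to Mgst1 log2 ratio, 4.12, was inside the range of the other WT UV mice (3.61 to 4.75). KO female UV mouse 66F stood high for Mgst1, with 91.3 cpm against 14.0 to 25.9 cpm. Scd3 stood apart in 3 groups: high at 21.8 cpm in WT female control 61F (others 0.555 to 2.82), high at 13.9 cpm in KO male UV mouse 58M (others 1.803 to 3.47) and low at 3.12 cpm in KO male control 34M (others 3.97 to 4.12). These mice were kept in the comparisons, except where a value is given without one of them.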

How the results depend on the processing

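For UV against Control the count of genes called was 5 to 6 in WT and 7 to 7 in KO mice as each of the 32 mice was left out, and it stayed at 0 for KO against WT in controls, for the genotype by UV interaction and for female against male in controls and after UV. For KO against WT after UV the count was 1 under DESeq2 and 0 to 1 with mice left out (1 without 32M), and for the interaction 2 under DESeq2. The shares of all genes called by DESeq2 are not given here. For UV in WT females the count was 1 under RLE, without a filter or with the sexes fitted separately, and 1 to 3 with mice left out. For UV in WT males it was 2 to 5 with mice left out.

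Values near 0 changed sign. Mgst1 after UV in WT mice was -0.0757 under limma-trend. With mice left out, the log2 differences after UV ran from -0.40 to 0.36 for Mgst1, -0.31 to 0.26 for Awat2, -0.64 to 0.25 for Far2 and -0.31 to 0.35 for Pparg in WT mice, and from -0.65 to 0.11 for Scd1 in KO mice. Scd1 in KO against WT controls ran from -0.19 to 0.0269. Ratios to Mgst1 ran from -0.33 to 0.0495 (WT) and -0.61 to 0.00728 (KO) for Awat2, -0.61 to 0.0245 for Dgat2 (WT) and -0.27 to 0.12 for Fa2h (KO), and the Mc5r to Fa2h ratio from -0.0203 to 0.30 (WT). The cause was not tested. RLE moved the split of all genes called for KO against WT after UV from 418 higher and 96 lower to 376 and 159, and for female against male after UV from 293 and 178 to 282 and 292. No paired analysis was possible because no pair of the 8 groups shares more than 1 mouse number. Pooled over genotypes, females and males share 2 numbers in controls and 2 after UV, but with the number as a block neither the sex differences nor the UV or genotype differences can be estimated beside the 8 group means. Numbers with F and M name different mice.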
